A study of Mus musculus with 6 samples.

Results

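A group of 10 genes of the ventral telencephalon and of GABA neurons was followed in embryonic mouse cortex that lacks the active copy of Mest. They are Dlx1, Dlx2, Dlx5, Dlx6, Gsx1, Isl1, Nkx2-1, Lhx6, Gad1 and Gad2. Their probes were taken by gene symbol from the array platform's annotation, with no measured value used, which gave 12 of the 21766 probes outside the control spots. The genes themselves were chosen with earlier results of these data known. Lhx6 and Gad2 had 2 probes each and the other genes 1. All 12 probes passed the filter on missing values and were among the 17476 probes tested.

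Each of the 6 two-colour arrays set the cortex RNA of 1 mutant embryo against that of 1 wild-type embryo, both of day E12.5. The mutants (1, 3, 4, 5, 6 and 7) carried on the paternal chromosome a LacZ-targeted Mest allele without exons 3 to 8, and a normal copy from a wild-type mother, which is silent because Mest, also called Peg1, is imprinted. The controls were wild-type cortices 2, 8 and 9, and the labels give no strain, sex or litter for any embryo. Mutants 3, 5 and 6 were labelled with Cy5 and mutants 1, 4 and 7 with Cy3, and each wild type was used on 2 arrays of opposite dye orientation. The label of the array of mutant 3 names wild type 1, which is not among the 3 wild types of the design. It was read as wild type 2.

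The ganglionic eminences, the swellings of the ventral telencephalon, are the main source of the GABA neurons of the mouse cortex. Young interneurons leave them and migrate tangentially into the cortical wall, so that in a dissected cortex these transcripts can come from migrating cells or from ventral tissue taken along. Dlx homeodomain factors act in the progenitors and young neurons of this domain, Nkx2-1 specifies its medial part and Lhx6 acts after Nkx2-1 in the interneurons that leave it. Gad1 and Gad2 encode the enzymes that make GABA from glutamate. In RNA of whole tissue, fewer cells of a type and less RNA per cell cannot be told apart.

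The promoters of 8 of the 10 genes were listed in the RefSeq table of build GRCm38.p6, all but those of Dlx5 and Dlx6. Printed here, for homeodomain genes whose ratios are described in what follows, are the 250 bases before the annotated start of the 4 genes for which this window lies wholly outside the annotated gene. Capitals mark the letters TAAT, or ATTA for the other strand, the core that many homeodomain proteins bind. Positions are counted back from the first transcribed base. Dlx2 lies at chr2:71546755-71547004 (minus strand), Gsx1 at chr5:147188446-147188695 (plus strand), Isl1 at chr13:116309689-116309938 (minus strand) and Nkx2-1 at chr12:56536909-56537158 (minus strand).
Dlx2: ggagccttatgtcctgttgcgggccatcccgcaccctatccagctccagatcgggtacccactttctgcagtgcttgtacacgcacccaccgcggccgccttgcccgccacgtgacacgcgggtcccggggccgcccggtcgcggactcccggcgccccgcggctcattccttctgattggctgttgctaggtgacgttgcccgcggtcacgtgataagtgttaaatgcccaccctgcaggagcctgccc
Gsx1: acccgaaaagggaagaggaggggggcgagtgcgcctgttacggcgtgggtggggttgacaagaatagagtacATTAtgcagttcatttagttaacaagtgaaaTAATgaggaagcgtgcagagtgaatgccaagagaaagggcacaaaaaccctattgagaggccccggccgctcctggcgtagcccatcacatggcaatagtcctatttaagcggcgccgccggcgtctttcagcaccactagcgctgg
Isl1: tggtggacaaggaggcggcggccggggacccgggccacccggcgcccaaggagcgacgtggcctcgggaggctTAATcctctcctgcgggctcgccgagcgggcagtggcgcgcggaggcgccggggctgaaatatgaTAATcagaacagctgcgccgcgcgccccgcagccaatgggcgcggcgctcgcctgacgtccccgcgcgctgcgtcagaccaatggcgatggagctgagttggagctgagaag
Nkx2-1: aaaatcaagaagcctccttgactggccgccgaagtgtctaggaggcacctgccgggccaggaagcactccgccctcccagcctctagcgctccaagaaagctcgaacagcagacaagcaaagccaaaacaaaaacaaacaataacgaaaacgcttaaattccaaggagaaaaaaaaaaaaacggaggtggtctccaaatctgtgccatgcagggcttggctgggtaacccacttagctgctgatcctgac

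The window of Gsx1 held 2 such cores, starting at positions -178 and -147, and that of Isl1 held 2, at -177 and -112. Those of Dlx2 and Nkx2-1 held 0. Over all listed windows of the members, 4 of 10 held the core, against 54.9% of 32851 windows of the same length in the table. The longer form TAATT (both strands), which contains the core, was in 1 of the 10, a window of Lhx6, against 25.0% of all windows. These matches are letters in a window and were not tested as binding sites.

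Values are given as log2 of mutant over wild type after each array had been centred on its median. Such ratios are not levels, so neither the amount of these transcripts in the cortex samples nor the tissue label itself could be checked. Between 16422 and 19564 probes had a value on an array. Mest, the targeted gene, fell on every array, to a fitted ratio of -1.59 (standard error 0.13, n = 6 arrays), with -1.36, -1.78 and -1.39 in mutants 3, 5 and 6 and -1.50, -2.07 and -1.44 in mutants 1, 4 and 7. The direction of the deposited ratios was read from this gene and the dye labels, so its value is no separate check. The limma p of Mest was 3.4e-05 before and 0.60 after adjustment.

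None of the 12 probes passed the test of mutant against wild type, an adjusted p of 0.05 in limma, and neither did any other probe (0% of 17476). At an unadjusted p of 0.05, 0 of the 12 and 3.93% of all probes passed. No member was above 0 on every array with a value, which 2.44% of all probes were, and none was below 0 on every array, which 3.12% were. The fitted ratios of the 12 probes ran from -0.19 to 0.66 and 7 of the 10 genes lay above 0, with Dlx2, Isl1 and Nkx2-1 below it; without centring the fitted ratios of these 3 were above 0 too. The median gene lay at 0.070, beside 0.0013 for the 12576 genes tested. Ratios were also simulated with the spread of these arrays, with 17276 probes unchanged. The same fit called 45 of the 100 probes given a log2 change of 1, and 74 of the 100 given a change of 2. The adjusted p depends on how many probes change, and the arrays themselves gave 0 calls. Mest, at -1.59, was not called (limma adjusted p = 0.60), although its unadjusted limma p was the smallest of all 17476 probes. The simulated shares therefore cannot be read as the rate of calling a change confined to few genes.

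**Figure D1:**
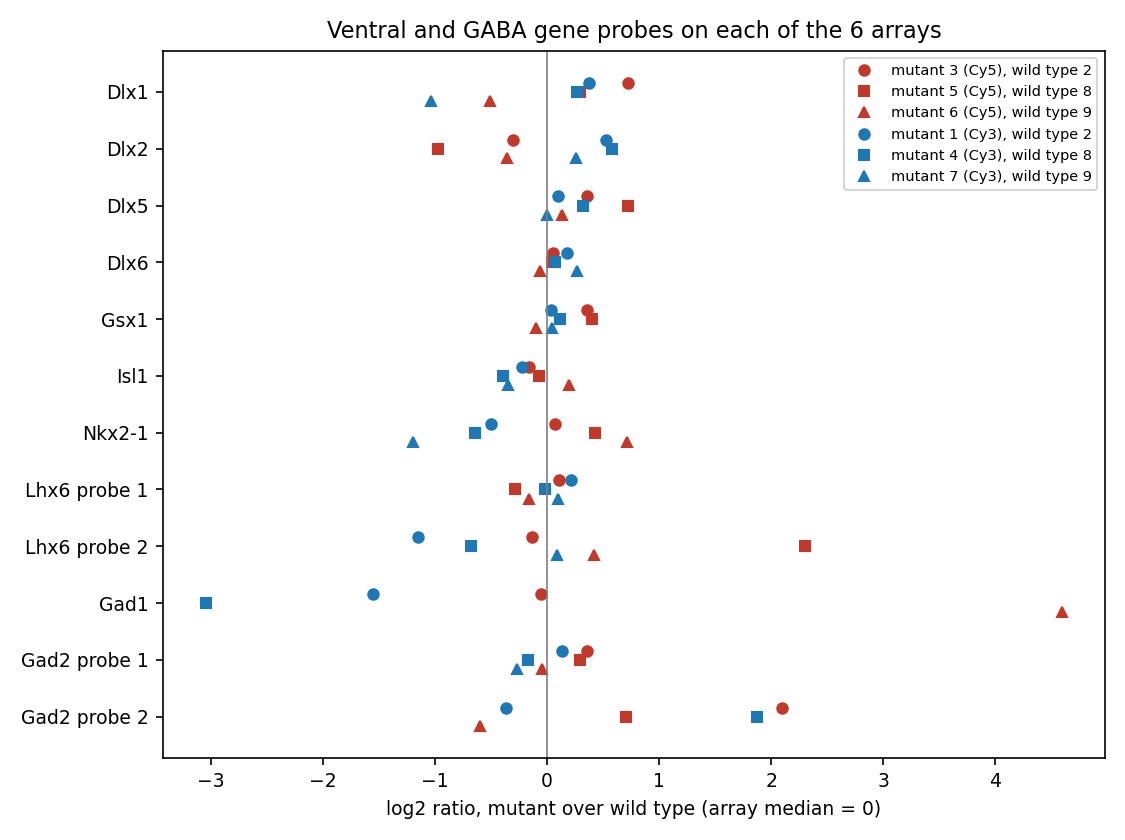
Log2 ratio of mutant over wild type (horizontal axis, array median at 0) for each of the 12 probes (rows) on the 6 arrays. Colour gives the dye of the mutant and shape the wild-type cortex. Dlx5, Dlx6, Gsx1, Isl1 and the first probes of Lhx6 and Gad2 stay between -0.39 and 0.72, while Gad1 runs from -3.04 to 4.60.

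Among the Dlx genes, Dlx5 came nearest to a difference. Dlx5 had 0.36, 0.72 and 0.13 in mutants 3, 5 and 6 and 0.094, 0.32 and -0.004 in mutants 1, 4 and 7. The lowest value is close to 0, the other 5 are above it, and the dye orientations overlap. The fitted ratio was 0.27 (standard error 0.11), that is 1.21 times the wild-type level with a 95% confidence interval from 0.995 to 1.46. The limma p was 0.054 before and 0.90 after adjustment, and 759 other probes had a smaller p. The unadjusted limma p of Dlx5 was 0.045 with no block, where 1119 of all 17476 probes were under 0.05, against 687 with the block. The ratio of Dlx5 was 0.15 without wild type 8.

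Dlx6, the neighbour of Dlx5 on the chromosome, varied least of all members. Its values were 0.055, 0.046 and -0.064 in mutants 3, 5 and 6 and 0.18, 0.069 and 0.27 in mutants 1, 4 and 7. All 3 arrays with the mutant in Cy3 lay above all 3 with the mutant in Cy5. The fitted ratio of Dlx6 was 0.092, with an interval of the ratio from 0.93 to 1.22 times wild type (limma adjusted p = 0.90, above 0 on 5 of 6 arrays). Within an array the difference Dlx5 minus Dlx6 does not depend on the centring, and it averaged 0.18 ± 0.33 (SD, n = 6), from -0.27 to 0.68.

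Dlx1 and Dlx2, the other neighbouring pair, spread more widely. Dlx1 had 0.72, 0.30 and -0.51 in mutants 3, 5 and 6 and 0.37, 0.27 and -1.03 in mutants 1, 4 and 7. Both arrays of wild type 9 were low and the other 4 high. With the array of mutant 3 read as wild type 2, the 3 pairs of arrays that share a wild type did not overlap. The pair means of Dlx1 were 0.55 for wild type 2, 0.28 for wild type 8 and -0.77 for wild type 9. Of the 10 member probes with 6 values that of Dlx1 was the only one with this separation, which 6.95% of the 13531 probes with 6 values show. The fitted ratio of Dlx1 was 0.020 (standard error 0.26), and 0.41 without the arrays of wild type 9.

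Dlx2 had -0.30, -0.97 and -0.35 in mutants 3, 5 and 6 against 0.52, 0.58 and 0.26 in mutants 1, 4 and 7. Every array with the mutant in Cy5 was below 0 and every array with the mutant in Cy3 above it, and 15.3% of all probes were likewise lower in Cy5 without overlap. The dye term of Dlx2 did not pass (limma adjusted p = 0.13). The fitted genotype ratio, in which the orientations weigh equally, was -0.043 (standard error 0.14), and the interval of the ratio ran from 0.76 to 1.24 times wild type. Dlx1 and Dlx2 had the same sign on 3 of 6 arrays.

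Gsx1, a homeodomain factor of ganglionic eminence progenitors, had 0.35, 0.40 and -0.10 in mutants 3, 5 and 6 and 0.040, 0.12 and 0.045 in mutants 1, 4 and 7. Of the 6 values 5 lay above 0, the largest on the arrays of mutants 3 and 5, and the orientations overlap. The fitted ratio of Gsx1 was 0.14 (standard error 0.10, limma adjusted p = 0.90).

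Isl1, a LIM homeodomain factor of lateral eminence cells that become striatal neurons, was the member most often below 0. It had -0.16, -0.075 and 0.20 in mutants 3, 5 and 6 and -0.22, -0.39 and -0.35 in mutants 1, 4 and 7. Of the 6 values 5 lay below 0 and the Cy3 arrays lay below the Cy5 arrays without overlap. The fitted ratio of Isl1 was -0.17 (standard error 0.092), or 0.89 times wild type with an interval from 0.76 to 1.05, and 0.0855 without centring. Its limma adjusted p was 0.90.

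Nkx2-1, the factor of the medial eminence, had 0.071, 0.43 and 0.71 in mutants 3, 5 and 6 and -0.50, -0.65 and -1.20 in mutants 1, 4 and 7. All values with the mutant in Cy5 were above 0 and all values with the mutant in Cy3 below it. The means of the pairs that share a wild type, in which the dye orientations balance, were close together at -0.22, -0.11 and -0.24 for wild types 2, 8 and 9. Their mean was -0.19 ± 0.071 (SD, n = 3 pairs), which equals the fitted ratio of -0.19; without centring that ratio was 0.063. With centring it was -0.067 without mutant 7 and -0.29 without mutant 6. The limma adjusted p was 0.90.

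Lhx6, a LIM homeodomain factor of migrating interneurons from the medial eminence, was read by 2 probes that disagreed. The first (for NM_008500) had 0.11, -0.28 and -0.16 in mutants 3, 5 and 6 and 0.22, -0.020 and 0.094 in mutants 1, 4 and 7. These values lie on both sides of 0, and the fitted ratio of -0.0074 had an interval from 0.85 to 1.16 times wild type. The second probe of Lhx6 (for AB031040) had -0.14, 2.30 and 0.42 in mutants 3, 5 and 6 and -1.15, -0.68 and 0.093 in mutants 1, 4 and 7. It spread over a far wider range, with a standard error of 0.41 against 0.090 for the first, and the 2 probes had the same sign on 2 of 6 arrays.

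**Figure D2:**
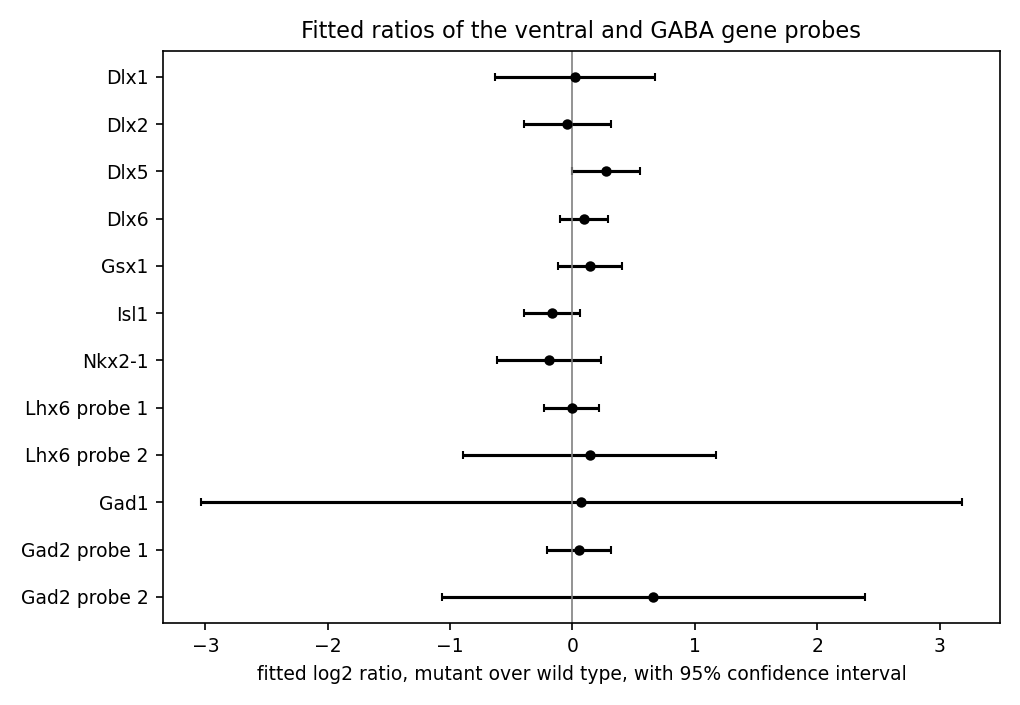
Fitted log2 ratio of mutant over wild type (points, horizontal axis) with its 95% confidence interval (bars) for each of the 12 probes (rows), from limma with a dye term and the wild type as a random block. All 12 intervals include 0; they are narrowest for Dlx6 (-0.10 to 0.29) and widest for Gad1 (-3.03 to 3.18).

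The GABA enzyme genes gave 1 precise reading and 2 imprecise ones. The first probe of Gad2 (for NM_008078) had 0.35, 0.30 and -0.049 in mutants 3, 5 and 6 and 0.14, -0.17 and -0.27 in mutants 1, 4 and 7. The values fall on both sides of 0 within each dye orientation. Its fitted ratio was 0.050, with an interval from 0.86 to 1.24 times wild type (limma adjusted p = 0.94).

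The second probe of Gad2 (for AK018118) had 2.10, 0.70 and -0.60 in mutants 3, 5 and 6 and -0.37 and 1.87 in mutants 1 and 4, with no value for mutant 7. Its fitted ratio of 0.66 is the highest of the 12 and had a standard error of 0.64; it was 0.015 without mutant 4, 0.024 without wild type 8 and 1.31 without mutant 1. Gad1 had -0.054 and 4.60 in mutants 3 and 6 and -1.55 and -3.04 in mutants 1 and 4, with no value for mutants 5 and 7. Neither Gad1 value on the Cy3 arrays reached those on the Cy5 arrays, and the fitted ratio of 0.073, from 4 arrays, had a standard error of 1.04.

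Some of these values shared their exact size with many other probes of the same array. On the array of mutant 4 the deposited value was 2.459 for Gad1 and -2.459 for the second Gad2 probe, a size held by 39 of its probes, while 0 probes lay 1 step of the third decimal above or below. Counting a value as shared where at least 10 probes of the array have its size and at least 3 times as many as at each neighbouring step, 4 of the 9 values of these 2 probes were shared, and 0 of the 60 values of the other 10 probes. Over all probes the percentage of such values ran from 4.18% on the array of mutant 6 to 23.9% on that of mutant 4. The criterion was chosen after these values had been seen, and the part of such values in the wide spread was not tested.

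The 12 probes were also compared between the dye orientations. With the mutant in Cy5 higher and no overlap there were 3 of the 12 probes (Isl1, Nkx2-1 and Gad1), against 14.5% of all probes, and with the mutant in Cy5 lower there were 2 (Dlx2 and Dlx6), against 15.3%. The dye term was largest among the members with 6 values for the second probe of Lhx6, at 1.44 (standard error 0.64), followed by Nkx2-1 at 1.18 (0.26) and Dlx2 at -0.998 (0.22). Nkx2-1 and Dlx2 had an unadjusted dye p under 0.05, as did 20.0% of all probes. After adjustment 0 of the 12 passed (limma adjusted p = 0.13 for both), where 0.269% of all probes did.

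**Figure D3:**
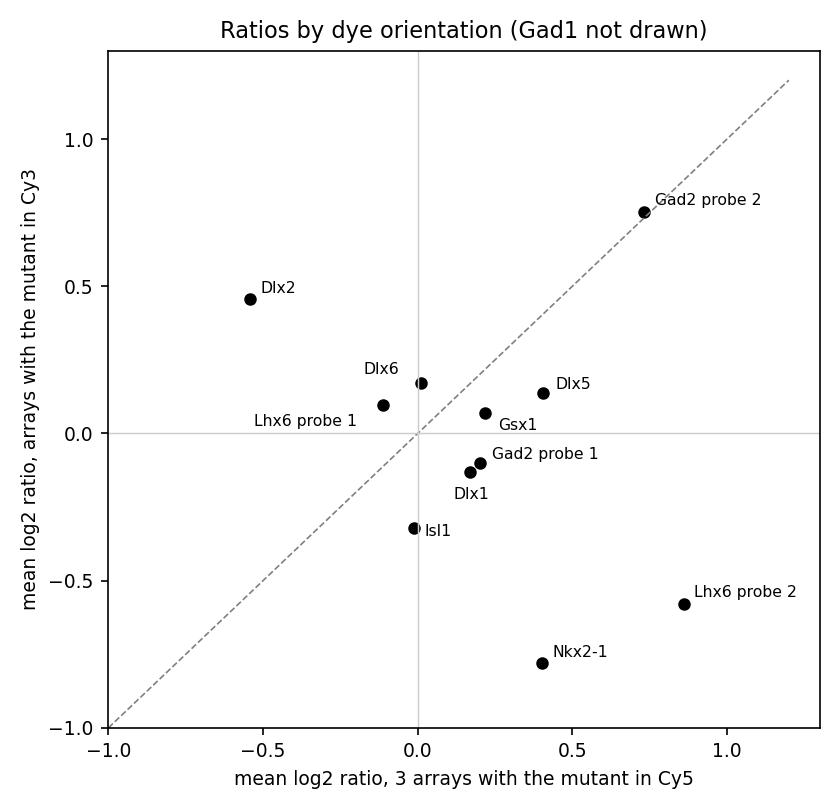
Mean log2 ratio of mutant over wild type where the mutant was labelled with Cy5 (horizontal axis) or with Cy3 (vertical axis), over the arrays with a value (3 each, and 2 with Cy3 for the second Gad2 probe), for 11 of the probes; Gad1, at 2.27 and -2.30, lies outside the frame. The dashed line marks equal ratios in both orientations. Nkx2-1 (0.40 and -0.78) and Dlx2 (-0.54 and 0.46) lie far from it on opposite sides, and Dlx5, Dlx6, Gsx1 and the second Gad2 probe lie above 0 in both.

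Taken per array, the median of the 10 genes was 0.063, 0.40 and 0.032 in mutants 3, 5 and 6 and -0.037, 0.094 and -0.004 in mutants 1, 4 and 7. The array of mutant 5 stands out and the other 5 lie near 0. The mean over the genes instead was 0.23, 0.26 and 0.44 on the Cy5 arrays and -0.17, -0.22 and -0.24 on the Cy3 arrays, without overlap. The mean of all 12576 tested genes did not overlap either, over a smaller range. It was -0.0205, 0.050 and -0.0005 on the Cy5 arrays and -0.042, -0.036 and -0.062 on the Cy3 arrays. Over the 9 genes with a value on every array, all but Gad1, the means were 0.26, 0.26 and -0.020 on the Cy5 arrays and -0.011, 0.092 and -0.24 on the Cy3 arrays, and the orientations overlapped. Without Gad1 and the second probes of Lhx6 and Gad2, an omission chosen after their standard errors were seen, the median of the fitted ratios was 0.020.

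Other genes of the same programme gave no call either. Of 26 further transcription factors of the ganglionic eminences 19 were tested, with 13 above and 6 below 0, a median of 0.072 and 0 passing in either direction. The 3 with the smallest p were Rarb, a retinoic acid receptor, at 0.25 (standard error 0.13, 1 of 2 probes, whose mean was 0.079), Zeb2, a repressor that directs interneurons to the cortex, at 0.49 (0.29), and Pbx3 at -0.15 (0.098). Gsx2, a paralog of Gsx1, was fitted at -0.57 (standard error 0.51), and its value in mutant 7 was -2.98 while the other 5 lay between -0.56 and 0.44. The 1 tested probe of Dlx6os2, named as an opposite-strand transcript of Dlx6, lay at -0.39 on 4 arrays (standard error 0.33). The strand that these probes read was not determined.

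Genes of interneuron migration and subtype (18 tested of 21) lay 9 above and 9 below 0 with a median of 0.0040 and 0 calls. The smallest p belonged to Nrp1, a semaphorin receptor, at 0.13 (standard error 0.083), Erbb4, a neuregulin receptor of migrating interneurons, at 0.21 (0.17, 1 of 2 probes, whose mean was 0.15), and Calb2, which encodes calretinin, at -0.084 (0.081). Genes of GABA transport, breakdown and receptors (14 tested of 22) lay 7 above and 7 below 0 with a median of 0.0001 and 0 calls. Among them the receptor subunit gene Gabra2 lay at 0.66 (0.26, 5 arrays, 1 of 2 probes, whose mean was 0.33). It was 1.41 on the Cy5 arrays alone and 0.019 on the Cy3 arrays alone. Gabbr1, a subunit of the metabotropic GABA receptor, lay at 0.21 (0.099). Its values were above 0 on 6 of 6 arrays, as for 2.44% of all probes, but only 0.009 and 0.016 in mutants 1 and 6. Gabrb1 lay at -0.89 (0.52, 5 arrays), with -0.11 on the Cy5 arrays alone and -1.83 on the Cy3 arrays alone. All 6 of these genes had a limma adjusted p of 0.90.

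As a comparison within the same arrays, the dorsal cortex list (13 tested of 18) had a median of -0.0016, 6 genes above and 7 below 0, and 0 calls. It included Pax6 at 0.13 (standard error 0.093, 1 of 2 probes, whose mean was 0.049), Tbr1, a factor of early cortical projection neurons, at -0.13 (0.094), and the proneural gene Neurog1 at 0.26 (0.20, 5 arrays). The difference of medians, ventral and GABA genes minus dorsal genes, does not depend on how an array is centred. It was 0.028, 0.31 and 0.055 in mutants 3, 5 and 6 and -0.0063, 0.094 and 0.22 in mutants 1, 4 and 7, a mean of 0.12 ± 0.12 (SD, n = 6 arrays, which share 3 wild types). The difference is above 0 on 5 of 6 arrays and its mean is about as large as its spread between arrays. Averaged over the 2 arrays that share a wild type, the difference was 0.011, 0.20 and 0.14 for wild types 2, 8 and 9. It was not tested.

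Some members are also expressed outside the telencephalon, among them Nkx2-1 in the hypothalamus and Isl1 in cranial ganglia. The mean of 17 tested diencephalon and eye genes (of 22) was 0.18, 0.69 and 0.25 on the Cy5 arrays and -0.078, -0.18 and -0.20 on the Cy3 arrays, without overlap. The mean of the ventral and GABA genes also did not overlap, but did once Gad1 was left out, as given above. Cranial ganglion genes (3 tested of 6) averaged -0.046, 0.22 and 0.18 on the Cy5 arrays and -0.24, -0.23 and -0.38 on the Cy3 arrays, also without overlap. The mean of all tested genes was likewise higher on the Cy5 arrays without overlap, but over a smaller range, between -0.062 and 0.050. The means of the other lists overlapped between the orientations. Dorsal cortex, for example, had 0.23, 0.135 and -0.0045 on the Cy5 arrays and -0.10, 0.020 and -0.18 on the Cy3 arrays. The cause of the separation was not tested. The lists of red blood cells (5 of 6 tested), endothelium (6 of 6), meninges (6 of 7), choroid plexus (4 of 4) and microglia (6 of 7) had medians of -0.25, 0.056, 0.047, -0.14 and -0.0026, and without centring of 0.0023, 0.31, 0.30, 0.11 and 0.25. At an unadjusted p of 0.05, 4 of the 6 red blood cell probes were lower, against 2.33% of all probes. Of the 20 diencephalon and eye probes 2 were higher, against 1.60%, and these 2 read the same gene, Tcf7l2. The fitted ratios of the diencephalon and eye genes had a median of 0.029, with 9 above and 8 below 0. No probe of these lists passed after adjustment in limma. Ratios give no marker level, and the part of these tissues in the members' values was not tested.

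**Figure D4:**
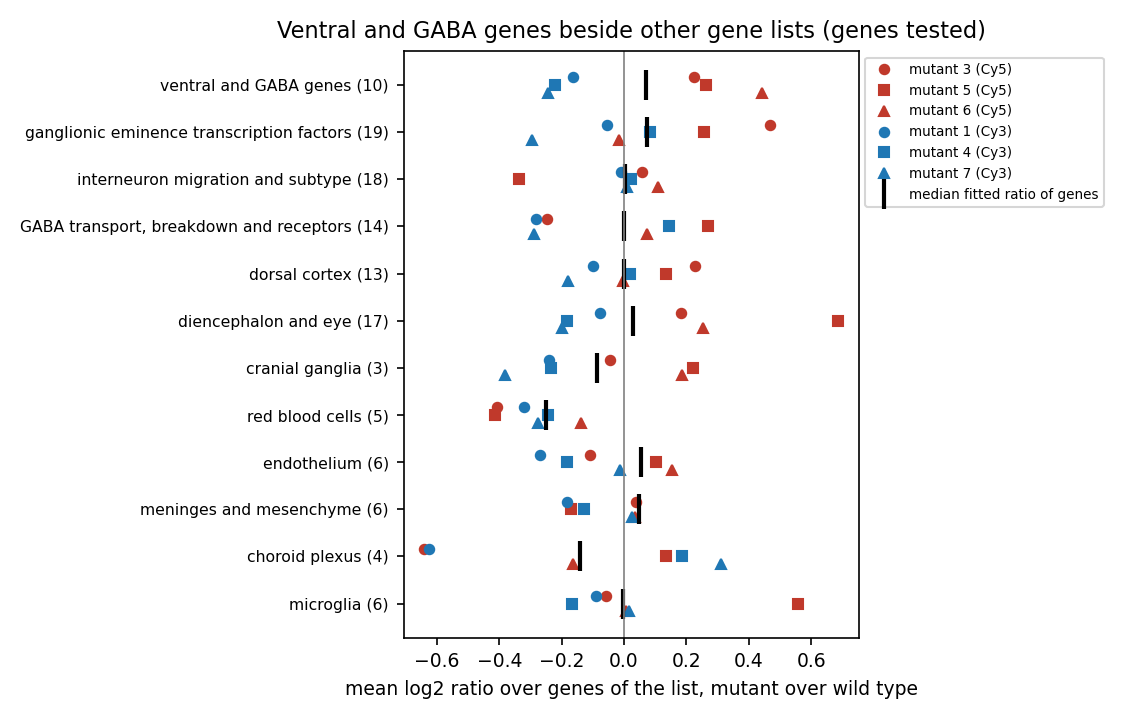
Mean log2 ratio of mutant over wild type over the tested genes of a list (horizontal axis) on each of the 6 arrays, with the number of tested genes in brackets; colour gives the dye of the mutant, shape the wild type, and black bars the median of the fitted gene ratios. The diencephalon and eye genes lie above 0 on the Cy5 arrays and below 0 on the Cy3 arrays, as do the ventral and GABA genes only with Gad1 included, and the red blood cell genes lie below 0 on all 6.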

How the data were processed

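The files hold 1 table of log2 ratios that the authors deposited, for 6 two-colour oligonucleotide arrays of E12.5 mouse cortex. How spots were scanned, corrected and normalized is not given in the sources used here. Those deposited log2 values were read as Cy5 over Cy3, since the sign of the Mest probe follows the dye labels, and scale and direction rest on this. No spot intensity was used, so a dim or saturated spot looks like any other.

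The value 16.61, a ceiling (590 values), was set to missing and 232 Gapdh control spots were left out. Ratios were turned to mutant over wild type and centred on each array's median, which lay at 0.25 on average before centring. Probes needed values on 4 or more arrays, 2 or more of them in each dye orientation. The fit was made in R 4.3.3 by limma 3.58.1 (lmFit, eBayes) and had terms for genotype and dye and the wild type as a random block (duplicateCorrelation, 0.25). The dye term is the mean with the mutant in Cy5 minus that with the mutant in Cy3. P-values were adjusted by Benjamini-Hochberg over all tested probes at a threshold of 0.05. The fit was tested on simulated data, where 11 of 17276 unchanged probes were called. A gene's value is the mean of its probes. The mutants are separate embryos, 6 arrays limit the precision, and p-values cover the spread between these arrays.

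Gene symbols came from the platform's annotation, updated by Entrez identifier in the table of GRCm38.p6. Of 21766 probes 16632 had 1 symbol, 139 several and 4995 none. The text names all members, Mest and, in each of the 4 lists of the ventral, GABA and dorsal programme, the 3 tested genes with the smallest p, with the value of that probe. Markers of other tissues are given as lists, and Gsx2 and Dlx6os2 were added for their kinship and position. Members and lists were chosen with earlier results of these data known. Alternatives covered the block, the label of wild type 1, the dye term, centring, scaling, missing values, moderation, single dye orientations and arrays left out.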

Additional observations from a re-analysis of the deposited data

Results flagged for a closer look

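On the array of mutant 5, 3 values were far from those of the other 5 arrays, by Dixon's criterion at the 95% level. The median of the ventral and GABA genes was 0.40 there, over the 9 genes with a value, and between -0.037 and 0.094 elsewhere. Their mean, which was not put to this criterion, was 0.26 there and between -0.24 and 0.44 elsewhere. The mean of the interneuron migration and subtype list was -0.34 there and between -0.010 and 0.11 elsewhere. The mean of the microglia list was 0.56 there and between -0.17 and 0.017 elsewhere. The array of mutant 5 also had the fewest probes with a value, 16422, and the largest median of mutant over wild type before centring, 0.76. Of 38 sets of values examined 3 stood out in this way, and chance gives about 1 in 20.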

How the results depend on the processing

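No alternative called any probe for genotype, or any of the 12 member probes for dye. At an unadjusted p of 0.05 the number of all probes for genotype ran from 223 without centring to 2761 on Gapdh control spots (280 higher and 407 lower as reported, 179 and 44 without centring, 2671 and 90 on Gapdh spots), and the lowest adjusted p of a member probe was 0.295. Of the members, Dlx5 had an unadjusted p under 0.05 with no block, no dye term, scaling, quantile normalization, values on all arrays, Gapdh spots or mutant 6 left out, Dlx6 on Gapdh spots, Dlx2, Nkx2-1 and Gad1 with the mutant in Cy3 only, and Dlx1 without wild type 9. Over all 17476 probes the count was 1119 with no block, 1073 with no dye term, 793 with scaling and 786 with quantile normalization. It was 1413 without mutant 6 and 1914 with the mutant in Cy3 only. With values on all arrays it was 604 of 13531, and without wild type 9 it was 951 of 16889. The median of the 10 genes, 0.070, was 0.33 without centring, 0.30 on Gapdh control spots and 0.30 with the mutant in Cy5 only, and -0.031 with the mutant in Cy3 only; it was 0.021 with quantile normalization, 0.033 without wild type 8, and from 0.024 (without mutant 1) to 0.13 (without mutant 6) with 1 array left out. Every named probe with 6 values moved up by 0.25 without centring and by 0.26 on Gapdh spots, while Gad1, on 4 arrays, moved up by 0.40 and 0.17. Without centring Dlx2 lay at 0.21, Isl1 at 0.0855, Nkx2-1 at 0.063, the first Lhx6 probe at 0.245, Pbx3 at 0.0975, Calb2 at 0.17 and Tbr1 at 0.12; on Gapdh spots they lay at 0.22, 0.094, 0.071, 0.25, 0.11, 0.18 and 0.13. Quantile normalization gave -0.030 for Dlx1, 0.015 for Dlx2 and -0.15 for Gad1. Gad1 was -0.0135 with no block or with wild type 1 as labelled (then 0.012 for the first Lhx6 probe) and -0.046 with no dye term. The Cy5 arrays alone gave 0.40 for Nkx2-1 and 0.0068 for Pbx3. The Cy3 arrays alone gave -0.13 for Dlx1, 0.46 for Dlx2, 0.097 and -0.58 for the Lhx6 probes, -2.30 for Gad1, -0.10 for the first Gad2 probe, -0.046 for Rarb, -0.020 for Erbb4 and -0.096 for Neurog1. The cause of these reversals was not tested. Leaving out 1 array or 1 wild type gave -0.24 to 0.41 for Dlx1, -0.12 to 0.072 for Dlx2, -0.092 to 0.064 and -0.22 to 0.53 for the Lhx6 probes, -1.27 to 1.15 for Gad1, -0.048 to 0.15 for the first Gad2 probe and 0.015 to 1.31 for the second; Dlx5 (0.15 to 0.37), Dlx6 (0.064 to 0.12), Gsx1 (0.085 to 0.23), Isl1 (-0.22 to -0.12) and Nkx2-1 (-0.29 to -0.067) kept their direction. The 47 dye calls over all probes became 1 with no block, 658 without centring, 10 on Gapdh spots, 176 with scaling, 150 with quantile normalization, 31 with the ceiling kept, 135 with values on all arrays, 2 with values on at least 2 arrays, 0 with no moderation, and 0 to 2 with arrays left out.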
